A study of Drosophila melanogaster with 12 samples.

Results

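The genes described here are 127 of the 15446 listed in the count table of Drosophila melanogaster ovaries. They were chosen by their level in the nxf2 mutant and in the wild-type stock W1118, in CPM (a gene's count as a share of all counts in its library, scaled to the same total for every library). A gene was taken where the mean of the 2 mutant libraries was at least 2 CPM and at least 4 times the W1118 mean plus 0.25 CPM. This held for 159 genes. Of these, 12 with a colon in the symbol and 20 given by name were left out. The choice therefore used the difference between mutant and W1118, and no test of that difference is made for the 127 genes.

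RNA-seq libraries were made from the ovaries of 6 groups of flies, with 2 libraries each. attp2 and W1118 are labelled wild type. In the knockdown nxf2 was reduced in the germline, by a driver and hairpin line that the labels do not name, and the nxf2 mutant (nxf2 -/-) was made with CRISPR/Cas9. The remaining 2 groups were a heterozygote (nxf2 +/-) and a mutant (nxf2 -/-), both with Panx labelled as FL10B tethered, a term that the labels do not explain. All flies were fed yeast, were kept at 25°C and had an age given as 3 to 5 with no unit. The labels give neither the nxf2 alleles nor how closely the mutant stocks are related to W1118 or attp2.

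The product of nxf2, related to nuclear RNA export factors, is needed, together with Panx and Piwi, for transcriptional silencing of transposons by piRNAs in the ovary. Many of the 127 genes have their known roles outside the ovary: glutathione S-transferases and cytochrome P450 enzymes act on foreign compounds, ion channels and synaptic proteins act in neurons, and storage and blood proteins are made by the fat body and hemocytes. Nothing in their known roles joins them into 1 pathway, and 75 of them carry only a CG or CR number as symbol in the table. In whole ovaries, fewer cells of a type and less RNA per cell cannot be told apart.

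Total counts ran from 3811630 in W1118 replicate 1 to 11260925 in attp2 replicate 2, so that 3 counts corresponded to between 0.266 and 0.787 CPM. The targeted gene, nxf2, stood at 70.8 and 69.4 CPM in W1118 and at 30.3 and 33.8 CPM in the mutant. In attp2 it had 35.0 and 47.7 CPM, against 17.8 and 15.8 CPM in the knockdown. In the Panx FL10B libraries it was at 36.5 and 37.6 CPM in the heterozygote and 31.0 and 30.9 CPM in the mutant, a difference that did not pass the test (edgeR, adjusted p = 0.334), so nxf2 RNA does not check those labels. The 10 ovary markers examined, such as vas and osk, were all measured, and their summed level lay between 6431 and 11712 CPM in every library. Nothing in the labels says that the replicates came from separate flies, so the p-values measure the spread between these libraries, which may be technical.

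The 127 genes took up little of the ovary RNA in any library. Their summed level was 265.8 and 263.1 CPM in W1118 and 2720 and 2430 CPM in the mutant, the difference that chose them. It was 1257 and 1336 CPM in the knockdown, 1407 and 1451 CPM in attp2, 1996 and 2035 CPM in the heterozygote and 1949 and 1961 CPM in the mutant, both with Panx FL10B. W1118 thus had the lowest sum of the 6 groups, with the other wild-type stock several times above it. Without GstD1 and CG42240, the 2 most abundant members in the mutant, the sum was 600.9 and 638.6 CPM in attp2 and 206.7 and 199.3 CPM in W1118.

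Single genes exceeded their W1118 level by between 4.004 and 257 times (mutant mean over W1118 mean plus 0.25 CPM), with a median of 8.31 times. Mean levels in the mutant ran from 2.01 to 362.9 CPM, with a median of 6.37 CPM, so most of these RNAs were scarce even where they were high. The genes just inside the limit were CG43050 at 4.004, CG13299 at 4.05 and CG42342 at 4.06 times. Just outside lay CG2254 at 3.96, CG13084 at 3.96 and CG8680 at 3.95 times. No count of 25 members was found in W1118, none of 15 in attp2, and none of 10 in either stock.

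For members at 2 CPM or more in a library, the higher library was a median of 1.45 times the lower in the mutant. The median was 1.41 times in attp2 and 1.15 to 1.27 times in the other groups. The choice by the mutant mean admits genes high in 1 mutant library, and this spread was not examined over all genes. For 14 members 1 mutant library was at least 4 times the other, and 12 of these were higher in replicate 1. Shaw, a voltage-gated potassium channel, had 206.0 and 37.7 CPM in the mutant and at most 1.39 CPM in any other library. mtt, related to metabotropic glutamate receptors, had 20.4 and 0.522 CPM. Lsp2, a larval storage protein of the fat body, had 31.2 and 2.09 CPM, and the neighbouring genes CG42704 and CG42705 had 10.2 and 17.5 CPM in replicate 1 and no count in replicate 2. For these genes the group mean came mostly from 1 library, although Shaw was far above W1118 in both. Each mutant library alone passed 4 times the W1118 mean plus 0.25 CPM for 90 members. With replicate 1 left out the rule found 127 genes, of which 98 were members, and with replicate 2 left out 160 genes, of which 112 were members.

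The other wild-type stock gave a different picture for many members. Both mutant libraries lay above both W1118 libraries for 121 members, against 36.6% of all tested genes in that direction, a count that the choice of members favours, and the libraries overlapped for 6. Both lay above both attp2 libraries for 95 members (38.7% of all tested genes) and below them for 4 (34.3%). The median ratio of the mutant mean to the attp2 mean plus 0.25 CPM was 3.65. Against the knockdown the mutant was above for 104 members (43.3% of all tested genes) and below for 3 (32.8%). Against the heterozygote with Panx FL10B it was above for 83 (29.1%) and below for 9 (41.6%), and against the mutant with Panx FL10B above for 55 (36.6%) and below for 27 (37.8%). Since the members were chosen for a high level in these same 2 mutant libraries, all these counts are favoured by the choice and are a description only. With attp2 in place of W1118 the rule found 140 genes, and 62 of the 127 members (48.8%) were among them. With the mean of both stocks as control it found 80 genes, of which 74 were members.

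**Figure D1:**
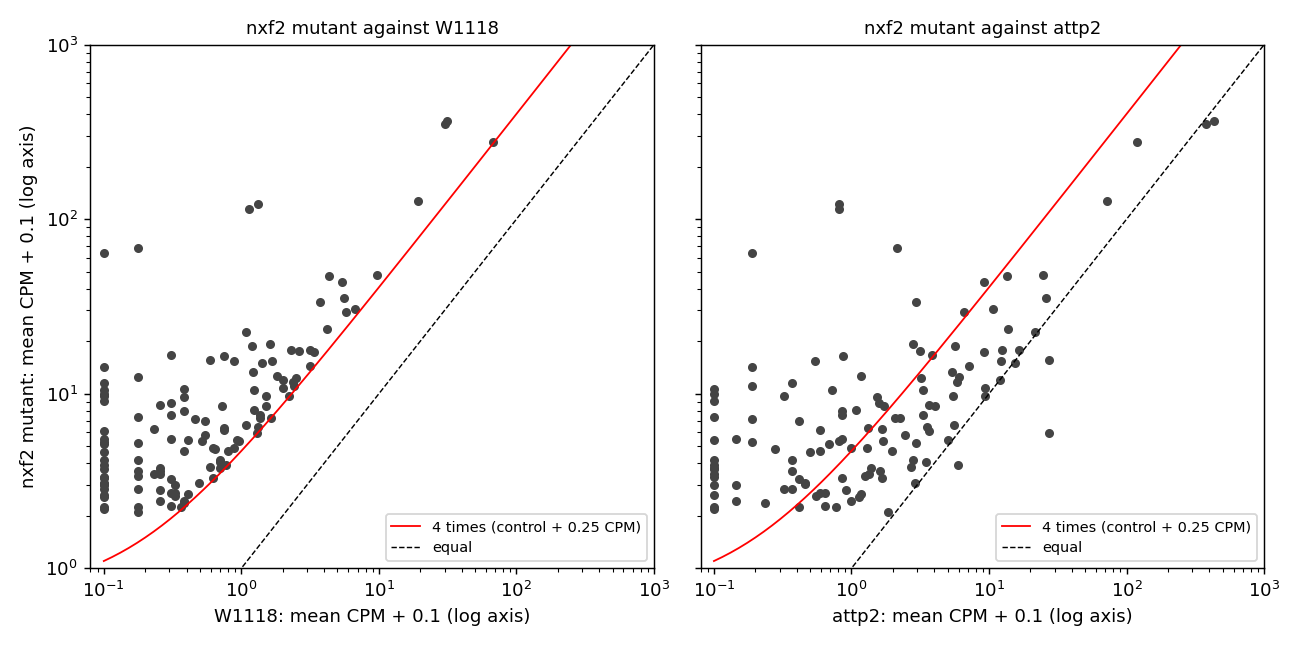
Mean level of each of the 127 members in the nxf2 mutant (vertical axis, CPM + 0.1, log scale) against its mean in W1118 (left) and in attp2 (right, horizontal axes, CPM + 0.1, log scale); each point is 1 gene, the red line marks 4 times the control plus 0.25 CPM and the dashed line equal levels. All points lie on or above the red line for W1118, by choice, whereas 62 of them do so for attp2.

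Taking the 4 groups that did not enter the rule, 31 members reached 4 times the W1118 mean plus 0.25 CPM in attp2 (3.13% of all tested genes did so) and 21 in the knockdown (2.47%). In the heterozygote with Panx FL10B 63 did (2.71%), and in the mutant with Panx FL10B 69 (3.43%). These shares cannot be read as a test, since members were chosen for a low W1118 level. All 4 groups passed the limit for 12 members, none of them for 37. For 24 members both Panx FL10B groups passed it and neither attp2 nor the knockdown did, and for 19 only the mutant with Panx FL10B passed it.

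**Figure D2:**
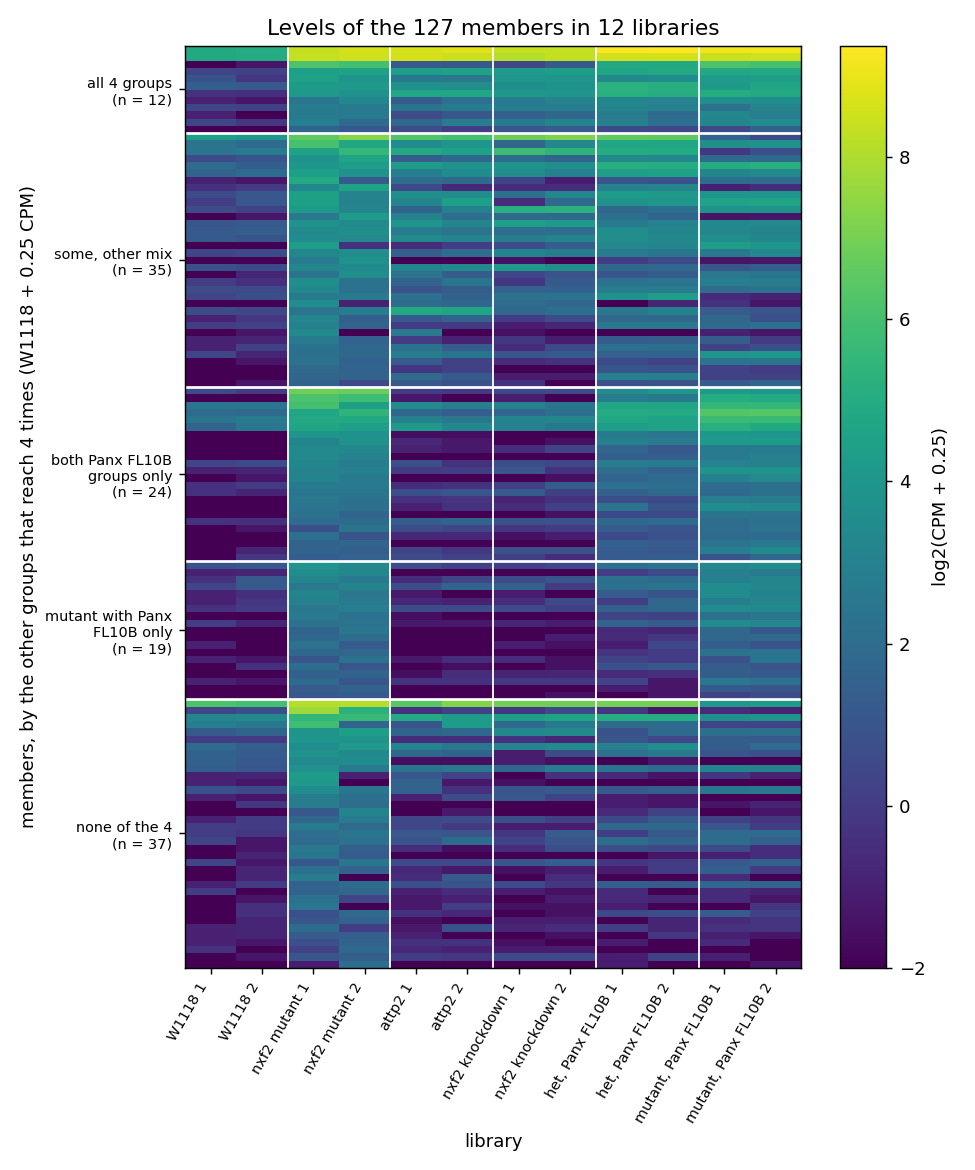
Levels of the 127 members (rows) in the 12 libraries (columns), as log2(CPM + 0.25). Rows are grouped by which of the 4 groups outside the rule reach 4 times (W1118 + 0.25 CPM): 12 members in all 4, 24 in both Panx FL10B groups only, 19 in the mutant with Panx FL10B only, 37 in none and the rest in other combinations. The W1118 columns are mostly dark, by choice.

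GstD1, CG42240 and CG16936 are examples of members that were low in W1118 alone. GstD1, a glutathione S-transferase, had 29.6 and 32.5 CPM in W1118 and 325.3 and 400.6 CPM in the mutant, but also 345.7 and 326.5 CPM in the knockdown, 406.5 and 459.8 CPM in attp2, 642.1 and 662.8 CPM in the heterozygote and 564.6 and 562.0 CPM in the mutant, both with Panx FL10B. CG42240 had 29.4 and 31.4 CPM in W1118 and between 271.6 and 400.3 CPM in each of the other 10 libraries. CG16936, named GstE12 in RefSeq and thus a further glutathione S-transferase, had 1.05 and 0.928 CPM in W1118 and between 17.04 and 30.7 CPM elsewhere. For all 3 genes no library of another group overlapped W1118, and the mutant lay within or close to the range of attp2.

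Cyp6a17, a cytochrome P450 known from work on temperature preference, had 0.525 and 0.464 CPM in W1118, 17.8 and 13.3 CPM in the mutant and 27.9 and 26.8 CPM in attp2. The other members that reached 4 times W1118 in all 4 groups were GstD9, Cyp4p2, CG6912, CG13032, CG18577, CG7900, CHKov1 and the pseudogene CR31032. Among them Cyp4p2 differed in that attp2 and the knockdown were far below the mutant.

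Other members were high in the mutant and low in both wild-type stocks, with differing levels in the Panx FL10B groups. tey, a nuclear protein known for guiding motor axons to their muscles, had 1.31 and 0.773 CPM in W1118, 0.721 and 0.710 CPM in attp2 against 1.19 and 1.30 CPM in the knockdown. It had 119.3 and 108.7 CPM in the mutant, 11.0 and 16.1 CPM in the heterozygote and 18.3 and 15.8 CPM in the mutant, both with Panx FL10B. The mutant libraries stood well apart from the rest, and the 2 Panx FL10B groups overlapped. CG1090 had no count in W1118, 71.1 and 57.4 CPM in the mutant, 6.78 and 5.73 CPM in the heterozygote and 32.5 and 30.8 CPM in the mutant with Panx FL10B. attp2 held 2 counts of it in all. Cyp4p2, a cytochrome P450, had at most 0.155 CPM in W1118, 72.2 and 63.4 CPM in the mutant, 2.16 and 1.95 CPM in attp2, 28.7 and 29.6 CPM in the heterozygote and 73.8 and 66.4 CPM in the mutant with Panx FL10B.

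A last kind was high in the mutant only. Besides Shaw these included Sh, the Shaker potassium channel, with 15.7 and 14.7 CPM in the mutant and at most 2.31 CPM in any other library. DopR, a dopamine receptor, had 10.5 and 11.5 CPM in the mutant, 2.62 and 2.01 CPM in W1118 and at most 0.216 CPM in the other libraries. Here W1118 was above attp2, opposite to the order seen for GstD1.

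**Figure D3:**
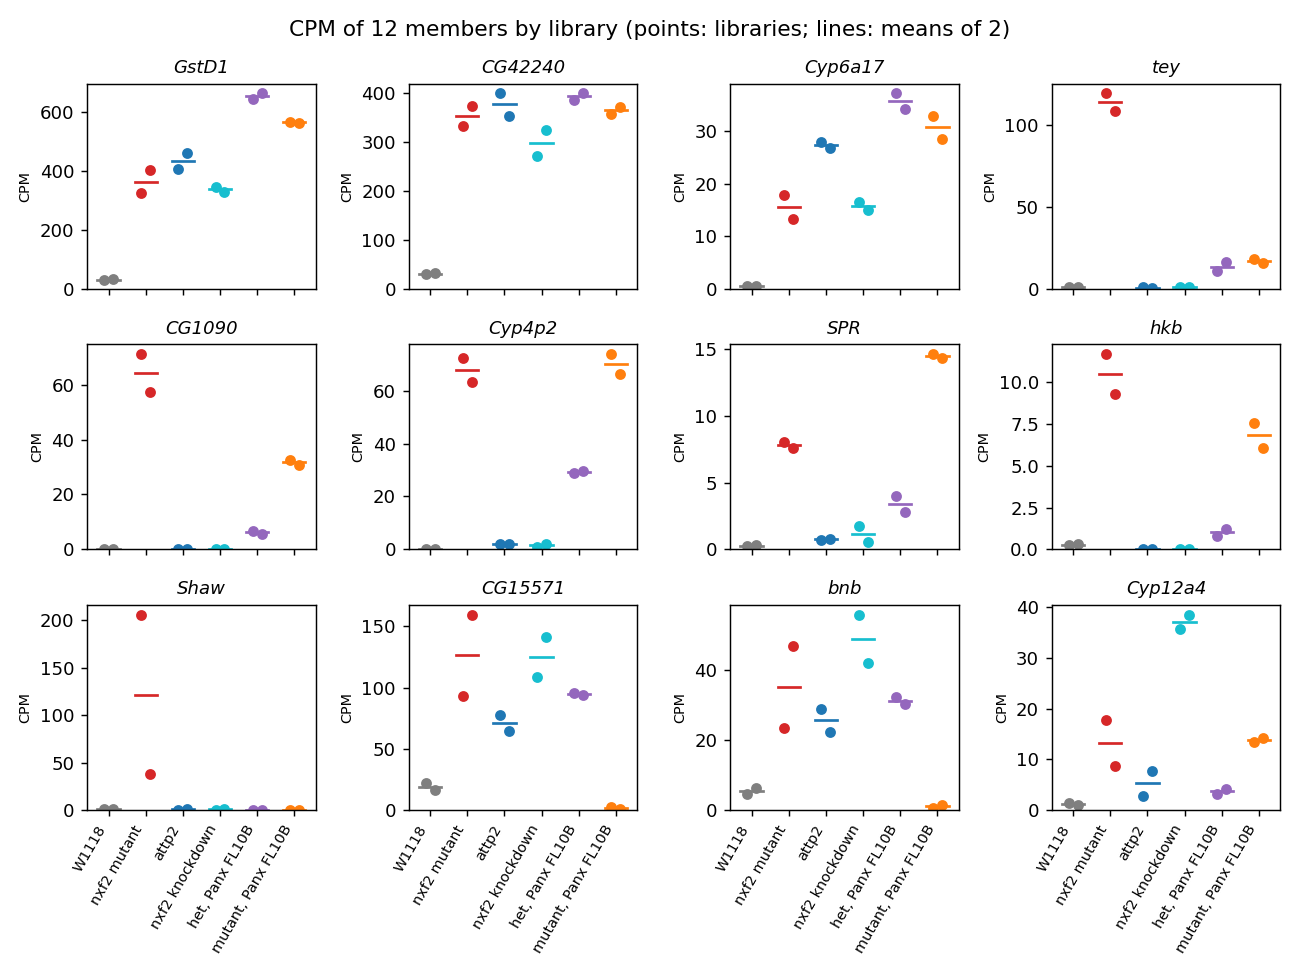
CPM of 12 members in each library (points) with group means (lines); each panel has its own vertical axis starting at 0. GstD1, CG42240 and Cyp6a17 are low in W1118 alone, tey and Shaw stand out in the mutant, and CG15571 and bnb are lowest in the mutant with Panx FL10B.

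The knockdown was compared with attp2 to ask whether members moved when nxf2 was reduced in the germline. None of these 4 libraries had chosen them. Of the 127 members, 123 passed the filter on low counts and were tested, whereas CG13949, CG31272, CG8851 and dpr3 were not. That filter used all 6 groups, so members could pass it through the mutant that chose them. Of the tested members 10 rose (8.13%, against 8.0% of all tested genes) and 10 fell (8.13%, against 7.70%), with edgeR's quasi-likelihood test and Benjamini-Hochberg adjustment over all 8638 genes. Of these 123 members 8, such as hkb and Doc1, had no count in any of the 4 libraries and could not be called, so the shares of members and of all genes are not alike in kind. Both knockdown libraries lay above both attp2 libraries for 30 tested members (24.4%, against 22.7% of all tested genes) and below them for 34 (27.6%, against 27.0%). The call of 5 of the 20 members held in every alternative setting that tested the gene. These were the rises of Cyp12a4, CG43366 and CG6912 and the falls of CG6910 and Tsf1.

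Cyp12a4, a mitochondrial cytochrome P450, had 2.88 and 7.64 CPM in attp2 against 35.7 and 38.6 CPM in the knockdown, above the 17.7 and 8.74 CPM of the mutant, and rose by a log2 change of 2.88 (SE 0.35, adjusted p = 0.000301). CG43366 went from 2.79 and 3.29 CPM to 9.60 and 10.1 CPM, a log2 change of 1.75 (SE 0.27, adjusted p = 0.00112). CG6912 went from 5.77 and 5.42 CPM to 15.5 and 15.4 CPM, a log2 change of 1.53 (SE 0.23, adjusted p = 0.000793). In all 3 genes the groups did not overlap. The other members that rose were CG13032, CR43463, haf (a leucine-rich repeat surface protein), bnb, CG15571, rst (roughest, a cell adhesion protein) and CG10962, by log2 fold changes between 0.74 and 1.71. RefSeq lists CR43463 as an antisense RNA, and without a stated strand setting its reads cannot be told from those of its partner.

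CG6910, named Miox in RefSeq for myo-inositol oxygenase, had 29.6 and 25.0 CPM in attp2 against 3.23 and 4.01 CPM in the knockdown, a log2 change of -2.84 (SE 0.23, adjusted p = 5.42e-06). The mutant had 4.99 and 6.79 CPM and W1118 1.31 and 1.08 CPM, so attp2 was the highest group. Tsf1, the iron carrier transferrin of the hemolymph, had 3.51 and 2.04 CPM in attp2 against 0.216 and 0.217 CPM in the knockdown, a log2 change of -3.53 (SE 0.52, adjusted p = 0.000984). Also lower were rpr, Cyp6a17, CG13321, CG16712 and IM3 (immune-induced peptides, IM33 and BomS3 in RefSeq), dpr6 and swi2, by log2 fold changes from -0.73 to -2.90. CG31326 had 17 counts in attp2 and none in the knockdown, at least 4.48-fold lower when set against 3 counts over the group.

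Fitting only the 4 libraries compared, with their own filter and spread, left 69 members tested. Of these 4 rose and 2 fell (1.51% and 0.778% of all genes tested there). DESeq2 left 6 rises and 9 falls (7.34% and 5.61% of all tested genes). Without either knockdown library fewer members rose, and a smaller share of all genes was called higher.

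Tsf1 is also a fat body marker. Of the 10 such markers in the table, of which Lsp2, Tsf1 and Obp99b are members, the sum was 101.4 and 88.6 CPM in attp2 against 15.5 and 42.5 CPM in the knockdown. It was 75.8 and 77.5 CPM in W1118 and 262.0 and 118.6 CPM in the mutant, and no marker was at 0 in all libraries. In the knockdown 1 of the 10 tested markers, Tsf1, fell and none rose (7.70% and 8.0% of all tested genes did). In the mutant with Panx FL10B 4 of the 10 rose, while Tsf1 was the 1 that fell (9.27% and 10.2% of all tested genes did). The sum of the markers was 91.3 and 85.9 CPM in the heterozygote and 61.8 and 61.1 CPM in that mutant. The part of fat body RNA in the results was not tested.

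The mutant with Panx FL10B was compared with the heterozygote with Panx FL10B, a second pair of groups that the rule did not use. Of the 123 tested members 33 rose (26.8%, against 9.27% of all tested genes) and 15 fell (12.2%, against 10.2%), by edgeR. The median log2 fold change was 0.68 over the tested members and -0.01 over all tested genes. Both libraries of the mutant lay above both of the heterozygote for 65 members (52.8%, against 34.2% of all tested genes) and below them for 31 (25.2%, against 35.4%). Of the 33 rises 15 were called in every alternative setting that tested the gene, as were 8 of the 15 falls. A stricter filter at 5 CPM in 2 libraries tested only 76 members. Fitting only these 4 libraries gave 52 rises among 99 members tested, in a fit that called 24.1% of all its genes higher. Leaving out any 1 of these libraries lowered the number of members called in both directions, and the share of all genes called fell as well.

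**Figure D4:**
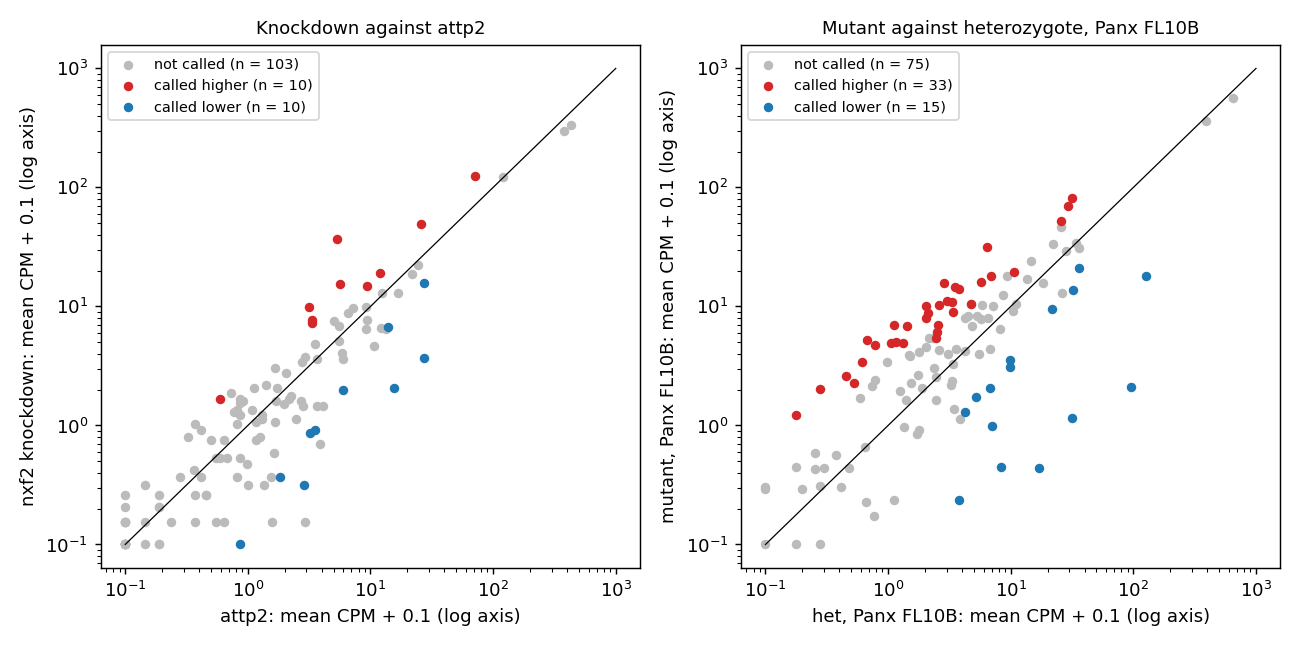
Mean CPM + 0.1 (log axes) of the tested members in the knockdown against attp2 (left) and in the mutant against the heterozygote, both with Panx FL10B (right); each point is 1 gene, red marks a rise and blue a fall called by edgeR, and the line marks equal levels. Calls lie on both sides of the line on the left (10 and 10) and more often above it on the right (33 and 15).

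rpr, or reaper, which sets off apoptosis, had 2.59 and 2.94 CPM in the heterozygote and 14.8 and 16.4 CPM in the mutant with Panx FL10B, a log2 change of 2.52 (SE 0.30, adjusted p = 5.9e-05). It had 4.31 and 3.26 CPM in the mutant without Panx FL10B and 6.67 and 5.06 CPM in attp2. The mutant with Panx FL10B was thus the highest of the 6 groups. In the knockdown rpr had 1.73 and 2.06 CPM and fell by 1.56 on the log2 scale (SE 0.30, adjusted p = 0.00516), although with the 4 libraries alone it did not pass (adjusted p = 0.0699).

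All 3 members grouped as transcription factors rose in this comparison (9.27% of all tested genes did). The group was made after the members were seen, and tey, a nuclear protein, was not placed in it. hkb, or huckebein, a zinc finger protein of the embryonic termini, had 0.798 and 1.24 CPM in the heterozygote and 7.59 and 6.07 CPM in the mutant, a log2 change of 2.73 (SE 0.39, adjusted p = 0.00055). No count of hkb was found in attp2 or the knockdown, and the mutant without Panx FL10B had 11.7 and 9.27 CPM. Doc1, a T-box factor, had 0.399 and 0.310 CPM in the heterozygote and 3.09 and 1.92 CPM in the mutant, a log2 change of 2.83 (SE 0.69, adjusted p = 0.0159). E5, a homeobox factor, had 0.399 and 0.465 CPM against 2.31 and 2.07 CPM (log2 fold change 2.33, SE 0.61, adjusted p = 0.0184). The groups of each gene did not overlap, but Doc1 and E5 lost their calls with DESeq2 (adjusted p = 0.0544 and 0.108). On leaving out single libraries Doc1 lost its call in 3 of 4 cases and E5 in all 4, with adjusted p up to 0.145 and 0.136.

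Of 10 members that are ion channels, receptors or synaptic and neuropeptide genes, 2 rose and none fell (9.27% and 10.2% of all tested genes did). SPR, the receptor of the male sex peptide, had 3.99 and 2.79 CPM in the heterozygote and 14.7 and 14.4 CPM in the mutant with Panx FL10B, a log2 change of 2.15 (SE 0.32, adjusted p = 0.000398). Its level in W1118 was 0.262 and 0.309 CPM, and in the mutant without Panx FL10B 8.05 and 7.57 CPM. nAcRalpha-7E, a nicotinic acetylcholine receptor subunit, had 0.997 and 0.155 CPM in the heterozygote and 5.66 and 4.59 CPM in the mutant, a log2 change of 3.27 (SE 0.57, adjusted p = 0.00126). Shaw and Sh, high in the mutant, were not called here (adjusted p = 1 and 0.26), with Shaw at 0.386 and 0.296 CPM in the mutant with Panx FL10B.

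A further list of 19 neuronal markers such as elav, of which 17 were in the table and none was a member, summed to 479.6 and 498.3 CPM in W1118 and to between 164.5 and 244.9 CPM in the other libraries. Of its 10 tested genes 2 rose and none fell in the mutant with Panx FL10B (9.27% and 10.2% of all tested genes did). The sum was thus highest in W1118, where the members were low by choice. The part of neuronal RNA in the results was not tested.

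Among 11 detoxification enzymes, grouped after the members were seen and without CG16936, 4 rose and 2 fell in the mutant with Panx FL10B (9.27% and 10.2% of all tested genes did). Cyp4p1 rose from 2.59 and 3.25 CPM to 11.4 and 10.7 CPM (log2 fold change 1.94, SE 0.28, adjusted p = 0.000347) and its neighbour Cyp4p2 by 1.30 (SE 0.16, adjusted p = 6.42e-05). Cyp9c1 rose from 31.5 and 31.0 CPM to 80.5 and 82.7 CPM, with 3.67 and 3.56 CPM in W1118, and Cyp12a4 from 3.19 and 4.18 CPM to 13.5 and 14.2 CPM. The call of Cyp12a4 was lost without either heterozygote library (adjusted p = 0.0818 and 0.0613). GstD9 fell from 37.9 and 34.4 CPM to 17.1 and 25.2 CPM (log2 fold change -0.74, SE 0.18, adjusted p = 0.0101), a call lost without heterozygote replicate 1 or mutant replicate 1 (adjusted p = 0.0887 and 0.148). Cyp9b2 had 41 counts in the heterozygote and 2 in the mutant, a ratio of 25.3 (95% counting interval 6.58 to 216). Over the wider list of 39 detoxification genes, 7 of them members, 26 were tested, and 4 rose and 2 fell here. In the knockdown 1 of the 26 rose and 7 fell (8.0% and 7.70% of all tested genes did).

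Of 5 tested members grouped as cell adhesion and other surface proteins, 2 rose and none fell (9.27% and 10.2% of all tested genes did). Receptors such as SPR were counted in the group above, and most members were given no role. stan, or starry night, a cadherin of planar cell polarity, had 0.798 and 3.10 CPM in the heterozygote and 6.81 and 8.88 CPM in the mutant (log2 fold change 1.97, SE 0.47, adjusted p = 0.00963), a call lost without heterozygote replicate 1 or mutant replicate 2 (adjusted p = 0.0963 and 0.0844). Ddr, a discoidin domain receptor kinase, went from 2.99 and 1.86 CPM to 6.17 and 5.92 CPM (log2 fold change 1.38, SE 0.36, adjusted p = 0.0188), and was not called with DESeq2 (adjusted p = 0.0708). Both were also at 6 CPM or more in each library of the mutant without Panx FL10B. CG1090 rose by a log2 change of 2.38 (SE 0.24, adjusted p = 2.56e-05), CG32212 by 2.40 (SE 0.44), CG4168 by 2.40 (SE 0.37), CG15553 by 2.67 (SE 0.59) and CG42798 by 2.76 (SE 0.47). CG15553 lost its call on leaving out any 1 of the 4 libraries (adjusted p = 0.05001 to 0.0961). Each of these 5 genes had at most 0.622 CPM in any attp2 or knockdown library.

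proPO-A1, the prophenoloxidase PPO1 of crystal cells, rose from 1.20 and 0.929 CPM to 4.76 and 5.03 CPM (log2 fold change 2.24, SE 0.50, adjusted p = 0.00676), a call lost without heterozygote replicate 2 (adjusted p = 0.0945). The hemocyte and basement membrane list, with 13 genes in the table and proPO-A1 the only member among them, summed to 828.5 and 800.8 CPM in the heterozygote and 815.3 and 808.8 CPM in the mutant with Panx FL10B. The sum of the list thus hardly differed between these groups, and 3 of its 10 tested genes rose and 1 fell (9.27% and 10.2% of all tested genes).

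The steepest falls, of CG43965, CG15571, bnb, Cyp9b2 and CG9928, exceeded every called rise in size. CG15571 had 95.7 and 93.8 CPM in the heterozygote and 2.83 and 1.18 CPM in the mutant with Panx FL10B, a log2 change of -5.48 (SE 0.40, adjusted p = 6.02e-06). CG43965 had 13.8 and 19.8 CPM against 0.386 and 0.296 CPM (log2 fold change -5.52, SE 0.41, adjusted p = 5.67e-07), and bnb (bangles and beads) 32.3 and 30.4 CPM against 0.643 and 1.48 CPM (log2 fold change -4.86, SE 0.46, adjusted p = 1.8e-05). In the mutant without Panx FL10B the same genes were at 93.2 and 159.5 CPM, 6.35 and 6.40 CPM, and 23.4 and 46.9 CPM. CG13299 fell from 125.8 and 127.9 CPM to 16.6 and 19.2 CPM, a log2 change of -2.79 (SE 0.24, adjusted p = 6.64e-06), with 279.7 and 271.2 CPM in the mutant without Panx FL10B. For all 4 genes the mutant with Panx FL10B was below every other library, W1118 included.

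CG9928 fell from 7.78 and 8.67 CPM to 0.257 and 0.444 CPM, and Tsf1 from 6.98 and 6.97 CPM to 0.900 and 0.888 CPM (log2 fold change -2.90, SE 0.41, adjusted p = 0.000319). CG32091, CG42822, CG13315, CG6910, CG16712, IM3 and Ance, an angiotensin-converting enzyme, fell by log2 fold changes from -1.15 to -1.75. Of these the call of IM3 was lost with DESeq2 (adjusted p = 0.0698), and those of IM3 and CG16712 on leaving out any 1 of the 4 libraries. CG6910, CG16712, IM3 and Tsf1 were called lower in the knockdown as well, in libraries that the 2 comparisons do not share. The knockdown calls of CG16712 and IM3 were lost in at least 1 alternative. Both comparisons used the same estimate of the spread, and the share of all genes called lower in both was not examined.

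Chorion genes, the eggshell genes of late follicle cells, moved the same way as these falls. All 6 examined (Cp15, Cp16, Cp18, Cp19, Cp36 and Cp38), a list added after the data were seen, were called lower in the mutant with Panx FL10B. Of all tested genes 10.2% were. The chorion genes fell by between 10.5 and 164-fold. Their summed level was 15616 and 15831 CPM in the heterozygote and 468.0 and 304.7 CPM in the mutant with Panx FL10B. It was 6300 and 10715 CPM in the mutant without Panx FL10B, 4966 and 4560 CPM in W1118, 19771 and 20013 CPM in attp2 against 24612 and 27589 CPM in the knockdown. bnb and CG15571, like the chorion sum, were higher in attp2 and the knockdown than in W1118, whereas CG9928 overlapped between attp2 and W1118. They were also higher in the mutant than in W1118, which the choice fixed for the members. Not all chorion genes shared this: Cp18 was lower in the mutant than in W1118, and Cp15 and Cp16 overlapped. The part of late follicle cells in these results was not tested.

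The effects of the knockdown and of the mutant with Panx FL10B were then compared directly, as the difference of the 2 log2 fold changes. It passed the test for 15 of 123 members: 8 were higher in the knockdown effect (6.50%, against 6.51% of all tested genes) and 7 lower (5.69%, against 4.19%). The largest differences in one direction were those of CG15571 at 6.36 (SE 0.48, adjusted p = 9.74e-06), CG43965 at 6.03 (SE 0.52, adjusted p = 3.3e-06) and bnb at 5.86 (SE 0.54, adjusted p = 1.8e-05), and in the other that of rpr at -4.07 (SE 0.43, adjusted p = 2.46e-05). proPO-A1 differed by -3.79 (SE 0.76, adjusted p = 0.00611). For rpr, bnb and CG15571 both effects were called and had opposite signs, but the knockdown call of each was lost in at least one alternative setting. Leaving out any 1 of the Panx FL10B libraries, or knockdown replicate 1, lowered the number of members called, and the share of all genes called fell as well.

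The heterozygote with Panx FL10B was also set against attp2, both of which keep nxf2. Here stock, Panx FL10B, the nxf2 copy number and any difference in processing between libraries with and without Panx FL10B cannot be told apart. The libraries are also shared with the comparisons above. Members could again pass the filter on low counts through the nxf2 mutant. The 15 members with no count in attp2 could not be called lower, so the shares of members and of all genes are not alike in kind. Of the 123 tested members 50 were higher in the heterozygote (40.7%, against 24.0% of all tested genes) and 4 lower (3.25%, against 26.5%), by edgeR. The median log2 fold change was 0.92 over the tested members and -0.01 over all tested genes. Both heterozygote libraries lay above both attp2 libraries for 75 members (61.0%, against 36.1%) and below them for 14 (11.4%, against 37.4%). Fitting only these 4 libraries, with their own filter, left 90 members tested. Of those 40 were higher and 5 lower (18.6% and 21.9% of all genes tested there). Of the calls in the fit of all 6 groups, 36 of the 50 and 3 of the 4 were made in every alternative setting that tested the gene.

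tey was higher in the heterozygote with Panx FL10B than in attp2 by a log2 change of 4.11 (SE 0.28, adjusted p = 8.62e-08) and Cyp4p2 by 3.70 (SE 0.21, adjusted p = 1.98e-08). Cyp9c1 was higher by 3.35 (SE 0.26, adjusted p = 2.98e-07), from 3.24 and 2.40 CPM in attp2. For several members attp2 had hardly any reads, so that the size of the difference is a bound or has a wide interval. rdgC, a protein phosphatase known from the retina, had no count in attp2 and 38 in the heterozygote, at least 22.4-fold higher against 3 counts over the group. CG34279 was at least 16.7-fold and CG31219 at least 16.4-fold higher. The ratio of summed counts was 63.8 for CG1090 (95% counting interval 17.02 to 537) and 57.5 for CG9766 (15.3 to 485). CG13814 and rdgC are listed under 1 name in RefSeq, and their reads may have been divided between the 2 entries.

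The members lower in the heterozygote with Panx FL10B than in attp2 were CG6910, by a log2 change of -2.14 (SE 0.22, adjusted p = 4.4e-06), CG10962 by -1.66 (SE 0.27), rpr by -1.19 (SE 0.31) and rst by -0.83 (SE 0.27). rst had 14.95 and 8.70 CPM in attp2 and 6.18 and 8.05 CPM in the heterozygote, so that the groups did not overlap. Its call was lost with the 4 libraries alone (adjusted p = 0.0791) and on leaving out attp2 replicate 1 or heterozygote replicate 1 (adjusted p = 0.213 and 0.134).

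Metabolic and blood proteins did not follow 1 pattern. Pepck, an enzyme of gluconeogenesis, had 66.3 and 27.7 CPM in the mutant, 4.72 and 3.71 CPM in W1118, 3.13 and 9.64 CPM in the knockdown, 11.3 and 15.5 CPM in attp2, 26.1 and 26.3 CPM in the heterozygote and 12.5 and 13.3 CPM in the mutant with Panx FL10B. It passed no test in the knockdown (adjusted p = 0.23), with Panx FL10B (adjusted p = 0.21) or between heterozygote and attp2 (adjusted p = 0.17). Lsd-1, a lipid droplet protein, had 22.1 and 8.35 CPM in the mutant, 1.31 and 1.86 CPM in W1118 and 12.6 and 11.5 CPM in attp2. Obp99b, an odorant-binding protein, had 1.47 and 5.09 CPM in the mutant and 0 and 0.155 CPM in W1118. CG1600, named Drat in RefSeq, had 65.3 and 21.9 CPM in the mutant, 5.25 and 5.26 CPM in W1118 and 46.5 and 46.6 CPM in the mutant with Panx FL10B. In Pepck, Lsd-1 and CG1600 mutant replicate 1 was the higher library, and in Obp99b replicate 2.

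Few members belonged to the immune or male lists. TotA, a stress-induced peptide, had 2.15 and 2.35 CPM in the mutant and at most 0.619 CPM in any other library. The list of 29 antimicrobial and immune genes, with IM3 and TotA as its members here, summed to 29.7 and 45.9 CPM in the mutant, 8.92 and 9.12 CPM in W1118 and 41.5 and 46.5 CPM in the heterozygote with Panx FL10B. In the mutant with Panx FL10B the sum was 6.43 and 9.32 CPM. There 3 of 8 tested genes were lower and none higher (10.2% and 9.27% of all tested genes). In the knockdown 2 were lower (7.70% of all tested genes), IM3 among them in both comparisons. Acp26Aa, a seminal fluid protein, had 5.10 and 2.22 CPM in the mutant and at most 0.444 CPM elsewhere. None of 21 testis genes was a member, and 6 of these had no count in any library. Their sum was 59.0 and 53.1 CPM in the mutant and 67.9 and 60.8 CPM in W1118. Lists for muscle, midgut enzymes and the reproductive tract, which an ovary sample could carry with it, held no member either. The sum of 25 muscle genes was 1698 and 1277 CPM in the mutant and 1476 and 1510 CPM in W1118. Of the 19 tested muscle genes 4 rose and 1 fell in the mutant with Panx FL10B (9.27% and 10.2% of all tested genes). All 4 tested reproductive tract genes were lower in that mutant, and 2 were lower in the knockdown (10.2% and 7.70% of all tested genes). The part of these tissues in the results was not tested.

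In position the members were spread over the major chromosome arms. Of the 122 that matched a single gene in RefSeq (assembly Release 6 plus ISO1 MT), 42 lay on arm 3R (34.4%, against 23.9% of tested genes), 25 on 2R (20.5%, against 20.4%), 21 on 2L (17.2%, against 17.9%), 20 on 3L (16.4%, against 19.4%) and 14 on X (11.5%, against 17.4%). None lay on chromosome 4, which holds 0.852% of tested genes. On that assembly 24 members lay within 10 kb of another member, in 13 pairs. These included GstD9, GstD1 and GstD2 in a row, Cyp4p2 with Cyp4p1, CG34279, CG42798 and CG42822 in a row, and CG42704 with CG42705.

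Neighbours did not always share a pattern. CG34279 and CG42798 rose in the mutant with Panx FL10B by log2 fold changes of 1.52 (SE 0.34) and 2.76, whereas CG42822 fell from 9.97 and 9.45 CPM to 3.47 and 3.40 CPM. GstD2 had 4.76 and 12.3 CPM in the mutant and 4.86 and 2.31 CPM in attp2, and its effects in the knockdown and with Panx FL10B differed by -2.71 (SE 0.76, adjusted p = 0.0365). Glutathione S-transferases and Cyp4p genes have near relatives among which reads may be divided. Ddr overlaps CG9486 and CG13594 overlaps Cyp9c1, so that reads of each pair may have been counted for the other gene.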

How the data were processed

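Per the labels' protocols, total RNA from ovaries was reverse transcribed with not-so-random primers, with sequencing on the Illumina HiSeq platform. The authors deposited whole-number read counts for each gene, with no normalisation. The submitters' processing notes name bcl2fastq 1.8.4, cutadapt 1.16, STAR 2.5.2a and genome dm3 for all libraries, and deepTools 2.5.7 and featureCounts 1.6.1 for those without Panx FL10B. For the Panx FL10B libraries the notes name no counting tool, and for none of the libraries an annotation or a strand setting (not given in the sources used here), so a difference in counting between these sets cannot be told apart from the groups.

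Levels in the text are CPM from the column totals, without TMM scaling. Tests used edgeR 4.0.16 in R 4.3.3 on all genes kept by filterByExpr (8638 of 15446), with TMM scaling (factors 0.919 to 1.05), robust quasi-likelihood fits and 1 model of 6 groups (6 residual degrees of freedom, biological coefficient of variation 0.102), without a replicate block. Calls are at a Benjamini-Hochberg adjusted p under 0.05 over all tested genes. The pipeline was tested on simulated data. Bounds use 3 counts over the group; bounds and intervals cover counting error only. DESeq2 1.42.0, other scalings, filters and sample sets were alternatives.

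The members, gene lists and tests were chosen with earlier results of these data known. Roles were grouped after the members were seen. Genes were named by a rule: the 12 highest in the mutant, up to 8 called members per direction and comparison, list members, those nearest the limit and close neighbours; others, such as Sh, DopR, stan and Ddr, were chosen after their values were seen. Positions come from RefSeq; no coordinates or sequences are given, since the files use another build.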

Additional observations from a re-analysis of the deposited data

Results flagged for a closer look

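The effect of the knockdown (against attp2) and that of the mutant (against the heterozygote, both with Panx FL10B) differed for 15 members, by edgeR's test of the difference between their log2 fold changes. The difference was positive, with the knockdown effect the higher one, for CG15571 (6.36), CG43965 (6.03), bnb (5.86), CG13299 (2.89), Ance (2.17), CG42822 (1.81), CG13315 (1.32) and CG32091 (1.14). In these 8 genes the mutant with Panx FL10B was below its heterozygote. It was negative for rpr (-4.07), proPO-A1 (-3.79), CG4168 (-2.75), GstD2 (-2.71), Cyp4p1 (-2.10), Cyp4p2 (-1.63) and dpr6 (-1.61). For bnb, CG13299, CG15571, CG43965, proPO-A1 and rpr the call held in every alternative setting that tested the gene. The filter at 5 CPM in 2 libraries left proPO-A1 out.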

How the results depend on the processing

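Several counts moved by more than 1.5 times. DESeq2 called 6 rises in the knockdown, and the fit of only the groups compared called 4 rises and 2 falls there and 52 rises with Panx FL10B. The rule found 80 genes with the mean of both wild-type stocks as control, 61 with an offset of 1 CPM and 67 with a limit of 8 times. Leaving out each library in turn gave 5 to 8 rises and 5 to 11 falls in the knockdown, 16 to 24 rises and 8 to 11 falls with Panx FL10B, 7 to 19 members whose effects differed, 39 to 50 higher and 3 to 6 lower in the heterozygote with Panx FL10B than in attp2, and 127 to 160 genes by the rule. A lone library left in a group was assumed to vary like the other groups, and the share of all genes called changed in these fits as well. The replicate numbers did not pair the samples: same-numbered deviations correlated at 0.0772 (knockdown and attp2), -0.0548 (Panx FL10B groups) and -0.00133 (heterozygote and attp2), and with the replicate block there were 9 rises and 11 falls, 32 rises and 16 falls, 15 differing effects, and 50 higher and 6 lower. The split of knockdown calls was 6 rises to 9 falls with DESeq2, and library sizes without TMM factors moved the median of all genes between heterozygote and attp2 from -0.01 to 0.10 (log2), with 53 members higher and 4 lower. Of 137 calls of single members, 64 were lost in at least one alternative, for causes not tested, and 0 reversed. Depth limits the members with few reads: in W1118 3 counts are 0.787 and 0.464 CPM.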
